A study of Mus musculus with 18 samples.

Results

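The genes described here are 8 genes of Schwann cells and their myelin in the mouse larynx: Mbp, Pmp22, Prx and Ncmap of the myelin sheath, the lineage regulator Sox10, the glial marker S100b, and Cdh19 and Gap43, which mark Schwann cells that do not make myelin or have not yet made it. They were chosen by gene name, and each name matched 1 row, so they are 8 of the 54532 genes in the count table. All 8 passed the filter on low counts, as did 17537 genes in all. The libraries came from whole larynges of male C57BL6/J mice, an inbred strain, aged 8 to 9 weeks, with no engineered allele named. Of 18 libraries, 6 were from mice exposed to smoke of 3R4F research cigarettes, 6 from mice that breathed JUUL Virginia tobacco e-cigarette aerosol and 6 from mice kept in room air, all of them placed in an inEXPOSE whole-body chamber for 1 hour a day on 5 days a week for 4 weeks. Whether a library stands for 1 mouse is not stated in the sources used here, so every p-value measures only the spread between these libraries.

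Schwann cells are the glia of peripheral nerves and derive from the neural crest. Some wrap a large axon in compact myelin, a stack of membrane held together by myelin proteins, and others ensheath bundles of thin axons without myelin. The larynx is reached by branches of the vagus nerve, which carry motor fibres to its muscles and sensory and autonomic fibres to its lining and glands. Several of these genes are also used outside nerves: Sox10 by the acini and myoepithelial cells of salivary and airway glands and by melanocytes, S100b by cartilage cells and adipocytes, Pmp22 by many fibroblasts and epithelia, and Mbp, through its longer Golli transcripts, by immune cells. In RNA from a whole organ, fewer Schwann cells and less RNA per Schwann cell cannot be told apart.

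The promoters of the members are shown as a description of their letters. Any part of them in how the members varied between libraries was not tested. The RefSeq promoter table (GRCm38.p6) matched 4 of the 8 members, and the 250 bases before the first RefSeq start of each follow, written 5′ to 3′ on the gene's strand. Capitals mark matches to 2 short motifs sought on both strands, ACAAT, the core bound by SOX proteins such as SOX10, and GTGGG, a core of the sites bound by early growth response proteins such as EGR2.
Prx promoter, chr7:27499074-27499323 (+ strand): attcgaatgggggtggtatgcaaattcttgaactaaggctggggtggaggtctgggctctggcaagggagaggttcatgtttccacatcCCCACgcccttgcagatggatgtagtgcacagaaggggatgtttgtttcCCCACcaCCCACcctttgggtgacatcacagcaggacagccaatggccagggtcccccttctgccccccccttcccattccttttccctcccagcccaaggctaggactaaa
Ncmap promoter, chr4:135398228-135398477 (- strand): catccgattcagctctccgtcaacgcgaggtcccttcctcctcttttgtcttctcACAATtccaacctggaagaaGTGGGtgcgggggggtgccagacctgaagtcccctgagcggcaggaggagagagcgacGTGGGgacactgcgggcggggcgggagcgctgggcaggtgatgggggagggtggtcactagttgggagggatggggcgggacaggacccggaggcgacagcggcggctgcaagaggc
Pmp22 promoter, chr11:63128732-63128981 (+ strand): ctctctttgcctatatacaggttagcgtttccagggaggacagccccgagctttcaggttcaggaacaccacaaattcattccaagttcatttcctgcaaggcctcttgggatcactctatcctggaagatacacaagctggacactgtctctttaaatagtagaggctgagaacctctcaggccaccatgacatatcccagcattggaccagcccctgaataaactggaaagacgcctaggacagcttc
S100b promoter, chr10:76253586-76253835 (+ strand): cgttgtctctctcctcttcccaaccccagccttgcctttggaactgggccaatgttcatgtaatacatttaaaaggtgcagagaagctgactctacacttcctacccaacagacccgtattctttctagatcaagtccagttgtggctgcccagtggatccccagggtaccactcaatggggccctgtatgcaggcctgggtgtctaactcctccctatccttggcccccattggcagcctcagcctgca
The Prx window held 3 matches to GTGGG, all on the opposite strand and read above as CCCAC, the nearest 105 bases before the start. The Ncmap window held 2 matches to GTGGG and 1 to ACAAT, all on the gene's strand. The Pmp22 and S100b windows held neither motif. The promoter table lists 8 promoters for these 4 genes, 4 of them for Pmp22. Only the first listed of each gene was read. These are short and common words: among the 32851 windows of 250 bases in the same table, 27.7% held ACAAT and 56.3% held GTGGG. The longer SOX core ACAAAG, found in 16.5% of all windows, and the TATA box core TATAAA, found in 12.4%, were in none of the 4. The GC content was 66.0% for Ncmap, 56.4% for Prx, 53.6% for S100b and 48.8% for Pmp22, against a median of 52.4% over all windows. A match is a description of the letters and not a site of binding.

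Library totals ran from 15.9 to 20.3 M counts in smoke, 16.7 to 22.5 M in e-cigarette and 15.6 to 17.1 M in air. Levels below are CPM, counts per 1 M counts scaled by TMM factors, which correct for differences in library composition. The tissue label was checked against genes of laryngeal cartilage, fast muscle and ciliated epithelium, all present in every library: the 14 muscle genes summed to at least 21982 CPM, the 11 ciliated cell genes to at least 400 CPM and the 15 cartilage genes to at least 99.7 CPM. Genes of neighbouring organs differed between groups: 12 thyroid follicle genes summed to 58178 to 95664 CPM in smoke, 145 to 29333 CPM in e-cigarette and 57213 to 98979 CPM in air. Air replicates 4, 5 and 6 were set apart from the other air libraries by their gland and cartilage genes. Their 14 gland acinar and myoepithelial genes summed to between 486.5 and 1148 CPM, against 2362 to 3841 CPM in air replicates 1, 2 and 3, and their 15 cartilage genes to between 99.7 and 175 CPM, against 352 to 595 CPM. For the members, fits with and without these libraries are given below.

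Per base of transcript, Pmp22 was the most abundant of the 8 in every library. Its RPKM, the CPM per kilobase of the deposited gene length, averaged 50.9 ± 1.97 in smoke, 42.7 ± 4.14 in e-cigarette and 54.2 ± 14.0 in air (SD, n = 6 each). S100b and Mbp took ranks 2 and 3 in every library. S100b averaged 26.7 ± 2.70 RPKM in smoke, 16.7 ± 5.18 in e-cigarette and 23.9 ± 4.66 in air. Mbp averaged 10.3 ± 1.504 RPKM in smoke, 10.3 ± 1.28 in e-cigarette and 9.44 ± 1.94 in air. Sox10, Prx, Ncmap, Cdh19 and Gap43 lay lower, between 0.943 RPKM for Gap43 and 3.87 RPKM for Sox10 in the air group, and their order changed from library to library. Of 8 genes of oligodendrocytes, the myelin cells of the brain, 6 had too few counts to be tested, among them Mog at a mean of 0.0980 CPM in smoke, 0.105 CPM in e-cigarette and 0.0716 CPM in air. Of the 2 that were tested, Myrf was below 1 CPM in every library and not called. Nkx2-2 ranged over 5.04 to 8.39 CPM in the smoke libraries, 0 to 2.78 CPM in those of e-cigarette and 6.09 to 14.0 CPM in those of air. It fell in e-cigarette versus air, at a log2 fold change of -3.76 (SE 0.61, adjusted p = 2.60e-04, edgeR). The value was -4.95 without e-cigarette replicate 1 and -2.39 without e-cigarette replicates 2, 4, 5 and 6, both called. With 4 composition covariates it was -0.02 and not called (adjusted p = 0.986, edgeR). These were scores (mean standardised log2 CPM) of the thyroid, fast muscle, cartilage and adipocyte lists. The thyroid score lay between -1.94 and -0.03 in e-cigarette and between 0.33 and 0.85 in all other libraries. A fit with these covariates therefore cannot tell exposure from thyroid content.

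**Figure D1:**
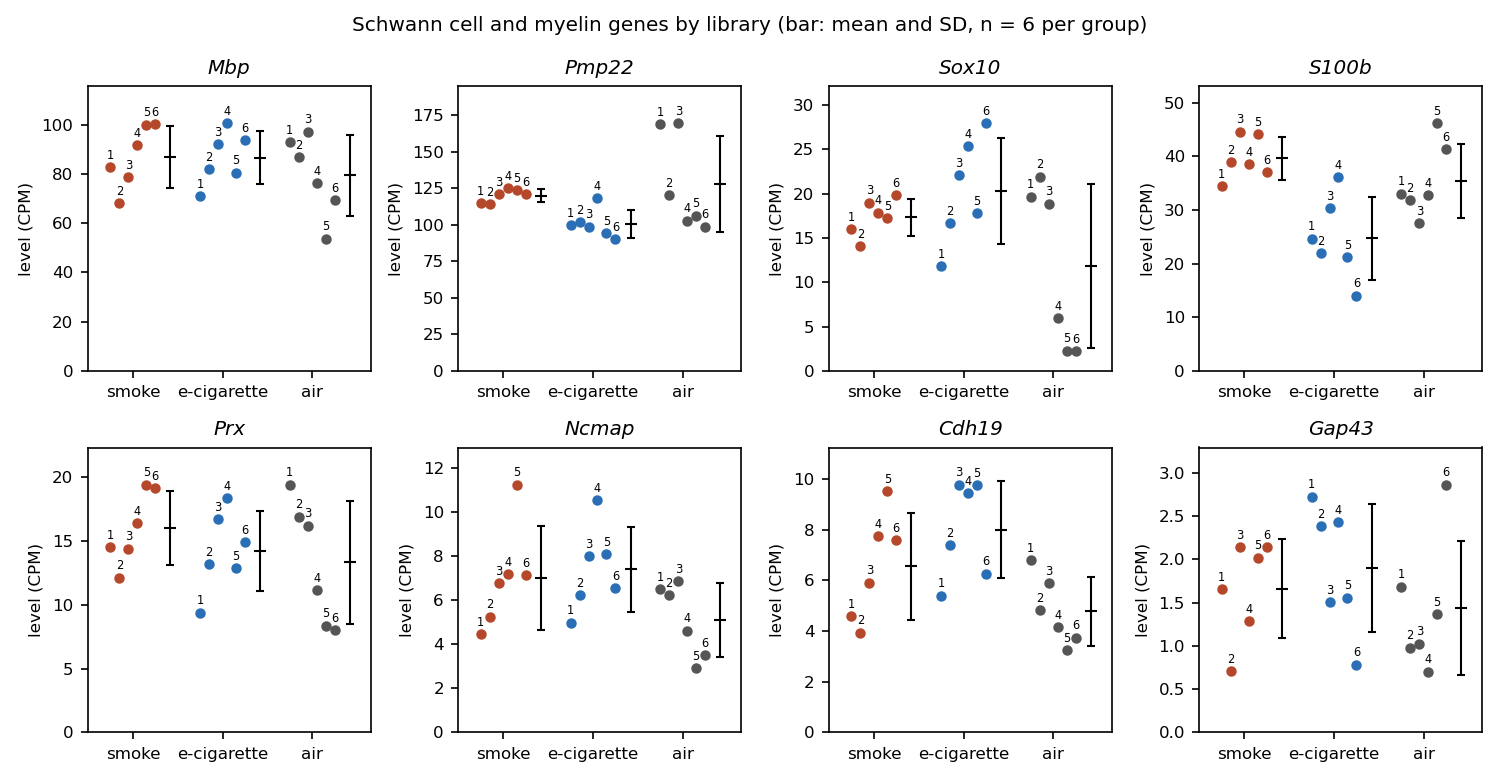
TMM-scaled CPM of the 8 genes on linear axes from 0, 1 point per library with its replicate number, and the mean and SD of the 6 libraries of each group beside the points. Air replicates 4, 5 and 6 are the 3 lowest of the air group for Mbp, Pmp22, Sox10, Prx, Ncmap and Cdh19, and S100b is lowest in e-cigarette replicate 6 at 14.0 CPM. The share of all tested genes that split the air group so was not computed.

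Mbp (chromosome 18, 82475146 to 82585637, plus strand, GRCm38), myelin basic protein, holds the inner faces of the myelin membrane together. It lay between 68.2 and 100.07 CPM in smoke with a median of 87.2, between 70.9 and 100.55 CPM in e-cigarette with a median of 87.0, and between 53.7 and 97.2 CPM in air with a median of 81.5. The 3 groups overlapped nearly throughout, and the low end of air was replicates 4, 5 and 6. Rpl21-ps8, a pseudogene on the other strand within the Mbp span, had 60 counts over all libraries against 26741 for Mbp.

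Pmp22 (chromosome 11, 63128982 to 63159547, plus strand), a membrane protein of compact myelin whose dosage underlies a human inherited neuropathy, was the tightest member in smoke, at 114 to 125 CPM with a median of 121. It lay between 90.0 and 118 CPM in e-cigarette with a median of 99.2, and between 98.7 and 169 CPM in air with a median of 113. Air replicates 1 and 3, at 169 CPM each, were above every other library of the 18, and 5 of 6 e-cigarette libraries were below the lowest smoke library.

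Prx (chromosome 7, 27499324 to 27520214, plus strand) encodes periaxin, a scaffold in the outer Schwann cell membrane that anchors the sheath. It lay between 12.1 and 19.4 CPM in smoke with a median of 15.5, between 9.38 and 18.4 CPM in e-cigarette with a median of 14.1, and between 8.00 and 19.4 CPM in air with a median of 13.7. The antisense gene Gm15541, which shares its locus, had 175 counts against 4603 for Prx, and the counting is not stated to use strand.

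Ncmap (chromosome 4, 135369576 to 135398227, minus strand), a membrane protein of non-compact myelin, lay between 4.47 and 11.2 CPM in smoke with a median of 6.94, between 4.98 and 10.5 CPM in e-cigarette with a median of 7.26, and between 2.90 and 6.86 CPM in air with a median of 5.42. Partly overlapping ranges of this kind recurred in Cdh19 (chromosome 1, 110888326 to 110977584, minus strand), a cadherin of Schwann cell precursors. Cdh19 lay between 3.94 and 9.53 CPM in smoke with a median of 6.75, between 5.40 and 9.78 CPM in e-cigarette with a median of 8.42, and between 3.24 and 6.80 CPM in air with a median of 4.49. In 4 of 6 e-cigarette libraries Cdh19 was above the highest air library.

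Sox10 (chromosome 15, 79154908 to 79165240, minus strand), the transcription factor that Schwann cells need at every stage, split the air group. It lay at 5.96, 2.28 and 2.22 CPM in air replicates 4, 5 and 6 and between 18.9 and 21.9 CPM in air replicates 1, 2 and 3. Smoke libraries lay between 14.05 and 19.8 CPM with a median of 17.5, and e-cigarette libraries between 11.8 and 27.9 CPM with a median of 19.9. Its coefficient of variation was 12.05% in smoke, 29.5% in e-cigarette and 78.5% in air.

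S100b (chromosome 10, 76253853 to 76261159, plus strand), a calcium-binding protein used as a glial marker, lay between 34.4 and 44.6 CPM in smoke with a median of 38.7, between 14.0 and 36.2 CPM in e-cigarette with a median of 23.3, and between 27.5 and 46.2 CPM in air with a median of 32.9. In 5 of 6 smoke libraries it was above every e-cigarette library, and in 4 of 6 e-cigarette libraries it was below every air library. S100b overlaps Dip2a on the other strand, a gene with 10614 counts against 10483 for S100b, but in the GENCODE M21 annotation, which is on that build, their exons share 0 bases.

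Gap43 (chromosome 16, 42248442 to 42340651, minus strand), a growth-cone protein of axons that non-myelinating and repair Schwann cells also make, was the scarcest, with 525 counts over all 18 libraries. It lay between 0.711 and 2.14 CPM in smoke with a median of 1.84, between 0.783 and 2.73 CPM in e-cigarette with a median of 1.97, and between 0.702 and 2.86 CPM in air with a median of 1.20. No group stood apart from another at this depth.

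The first comparison asked whether 4 weeks of cigarette smoke changed these genes. None of the 8 passed the test in smoke versus air (edgeR quasi-likelihood test, Benjamini-Hochberg adjusted p below 0.05 over 17537 genes), where 1.59% of all tested genes did, 0.975% higher and 0.616% lower. The log2 fold changes of the members ran from -0.09 for Pmp22 to 0.55 for Sox10, 7 of 8 above 0, with a median of 0.23 against 0.01 over all tested genes. For every member the smoke and air libraries overlapped, while 2.43% of all tested genes had no overlap. At an unadjusted p below 0.05 the count was also 0, and it was 0 in DESeq2 and 1 in voom with sample quality weights, where Sox10 was higher (adjusted p = 0.0314).

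Sox10 had the largest value of the 8, 0.55 with an SE of 0.46 and an adjusted p of 0.537 in the edgeR test. Ncmap was at 0.46 (SE 0.24, adjusted p = 0.300, edgeR) and Cdh19 at 0.46 (SE 0.23, adjusted p = 0.272, edgeR). Prx was at 0.26, Gap43 at 0.20, S100b at 0.16 and Mbp at 0.13, with adjusted p from 0.506 to 0.794. These values turned on the air libraries. Without air replicates 4, 5 and 6 the values were -0.24 for Sox10, -0.15 for Prx and -0.11 for Mbp, with no member called. Without air replicates 1, 2 and 3 they were 2.30 for Sox10 (adjusted p = 7.82e-04, edgeR), 0.79 for Prx (adjusted p = 0.0166) and 0.92 for Ncmap (adjusted p = 0.0390), and these 3 were called.

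**Figure D2:**
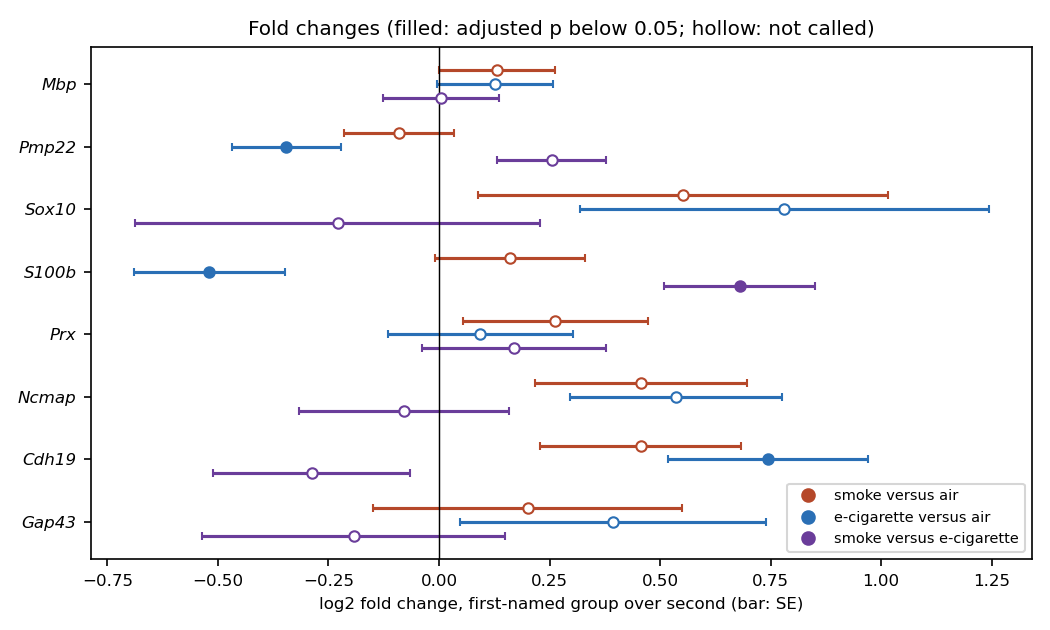
Log2 fold changes of the 8 genes in the 3 comparisons, first-named group over second, with bars of 1 SE; filled points have an adjusted p below 0.05 in edgeR. The 4 filled points are Pmp22, S100b and Cdh19 in e-cigarette versus air and S100b in smoke versus e-cigarette.

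The second comparison asked the same of e-cigarette aerosol. Cdh19 rose, and S100b and Pmp22 fell, in e-cigarette versus air. That is 3 of 8 members called, beside 25.1% of all tested genes, and by direction 1 higher beside 12.1% and 2 lower beside 13.0%. The members' log2 fold changes ran from -0.52 to 0.78, 6 of 8 above 0, with a median of 0.26 against 0.01 over all tested genes. No member had groups without overlap, which 10.5% of all tested genes had.

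Cdh19 averaged 8.01 ± 1.92 CPM in e-cigarette and 4.78 ± 1.35 CPM in air (SD, n = 6 each), a log2 fold change of 0.74 (SE 0.23, adjusted p = 0.0204, edgeR), with all 6 e-cigarette libraries above the air mean. Genes of other tissues were also higher in that comparison: 5 of 15 cartilage genes rose and 0 fell, 6 of 12 tested gland genes rose and 0 fell, and 10 of 14 fast muscle genes rose and 0 fell. These are 33.3%, 50% and 71.4% of the lists, beside 25.1% of all tested genes, 12.1% higher. The cartilage genes, which varied with Cdh19 between libraries, summed to between 290 and 1150 CPM in e-cigarette and between 99.7 and 595 CPM in air; their part in the Cdh19 rise was not tested. S100b averaged 24.7 ± 7.69 CPM in e-cigarette and 35.4 ± 6.91 CPM in air, a log2 fold change of -0.52 (SE 0.17, adjusted p = 0.0300, edgeR), with 5 of 6 e-cigarette libraries below the air mean. Of 12 adipocyte genes, which share S100b, 0 rose and 3 fell in the same comparison. That is 25% of the list, near the 25.1% of all tested genes. Their summed levels were 1006 to 1363 CPM in e-cigarette and 1182 to 1802 CPM in air. Cartilage genes, which also share S100b, went the other way with all 6 air libraries counted, as given above. The part of either tissue in the S100b fall was not tested. Pmp22 averaged 100.45 ± 9.73 CPM in e-cigarette and 128 ± 32.9 CPM in air, a log2 fold change of -0.35 (SE 0.12, adjusted p = 0.0460, edgeR), and all 6 e-cigarette libraries were below the air mean.

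The 5 members that did not pass were Sox10 at 0.78 (SE 0.46, adjusted p = 0.237, edgeR), Ncmap at 0.54 (SE 0.24, adjusted p = 0.109, edgeR), Gap43 at 0.39, Mbp at 0.13 and Prx at 0.09, these last 3 with adjusted p from 0.434 to 0.779. None of the 3 calls held in every fit. Cdh19 was no longer called without air replicate 6 or e-cigarette replicate 3 or 5 (adjusted p up to 0.0559, edgeR), and without air replicates 4, 5 and 6 it was at 0.45 (adjusted p = 0.228). S100b was no longer called without air replicate 5 or 6 or e-cigarette replicate 2 or 5 (adjusted p up to 0.0758), and without air replicates 4, 5 and 6 it was at -0.32 (adjusted p = 0.246). Pmp22 was no longer called in 10 of 18 fits that each left out 1 library (-0.43 to -0.25, adjusted p up to 0.130). Pmp22 was at -0.61 (adjusted p = 7.14e-04) without air replicates 4, 5 and 6 and at -0.04 (adjusted p = 0.774) without air replicates 1, 2 and 3.

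The third comparison set the 2 exposures against each other. The air libraries entered its filter on low counts, its TMM factors and its estimate of the spread, but neither of the levels compared. S100b was the member that passed: it was higher in smoke than in e-cigarette, with means of 39.6 ± 4.00 CPM over the smoke libraries and 24.7 ± 7.69 CPM over the e-cigarette libraries (SD, n = 6 each). The log2 fold change was 0.68 (SE 0.17, adjusted p = 0.00970, edgeR), with all 6 smoke libraries above the e-cigarette mean. This 1 call in 8 stands beside 16.5% of all tested genes, 10.4% higher and 6.10% lower in smoke. The call held in 18 of 18 fits without 1 library (0.56 to 0.82, adjusted p up to 0.0264) and in 12 of 14 other fits. It was lost with 4 composition covariates (0.35, adjusted p = 0.921), a fit in which 0 genes were called in that comparison, and without e-cigarette replicates 2, 4, 5 and 6 (0.52, adjusted p = 0.231).

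The other members ran from -0.29 for Cdh19 to 0.25 for Pmp22, and the median of the 8 was -0.04 against -0.01 over all tested genes. Mbp did not separate the exposures at all, at 0.00 (SE 0.13, adjusted p = 0.987, edgeR). Pmp22 was at 0.25 (SE 0.12, adjusted p = 0.175), with 4 of 6 smoke libraries above every e-cigarette library. No member had groups without overlap, which 9.37% of all tested genes had. Adipocyte and cartilage genes, which share S100b, were measured beside it. Of 12 adipocyte genes, 7 were higher and 0 lower in smoke versus e-cigarette, 58.3% of the list beside 16.5% of all tested genes. Their summed level was 1436 to 1945 CPM over the smoke libraries and 1006 to 1363 CPM over the e-cigarette ones. Of 15 cartilage genes, 0 were called, with summed levels of 352 to 990 CPM in smoke and 290 to 1150 CPM in e-cigarette. The part of these cells in the S100b difference was not tested.

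Around the 8 genes, lists of Schwann cell, myelin and nerve genes were read from the same fit, counting the members in the lists they belong to. Of 25 tested myelin sheath genes, 0 were called in smoke versus air (median log2 fold change 0.23), and 5 rose and 3 fell in e-cigarette versus air (median 0.16). The e-cigarette calls are 32.0% of the list, near the 25.1% of all tested genes called in that comparison, 12.1% higher and 13.0% lower. Beyond Pmp22 those that fell were Gjb1, the gap-junction protein connexin 32, and Sh3tc2. Gjb1 lay between 15.0 and 35.4 CPM in e-cigarette and between 68.5 and 138 CPM in air, with no overlap, as 10.5% of all tested genes had none, at -1.84 (SE 0.23, adjusted p = 1.96e-05, edgeR). Gjb1 is also a gene of thyroid and other epithelia, and the thyroid gene levels given above were lower in e-cigarette; their part in this fall was not tested. Among those that rose were Ugt8a, which makes the galactolipid of myelin, at 0.95 (SE 0.18, adjusted p = 5.25e-04) and Mpdz, a scaffold protein, at 0.77. In smoke versus e-cigarette 3 of the 25 were higher and 1 lower, 16.0% of the list beside 16.5% of all tested genes, with Gjb1 at 1.52 and Sh3tc2 at 0.67 among the higher and Ugt8a at -0.84 the lower. Mag, an adhesion protein facing the axon, was at 0.37 in smoke versus air and 0.40 in e-cigarette versus air, and was not called.

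Of 19 tested lineage regulators and receptors, 1 rose and 0 fell in smoke versus air, and 4 rose and 2 fell in e-cigarette versus air. These are 5.26% of the list in smoke, beside 1.59% of all tested genes, and 31.6% in e-cigarette, beside 25.1%. The gene that rose in both was Adgrg6, an adhesion receptor that Schwann cells need to start myelination. Adgrg6 lay between 9.79 and 15.5 CPM in smoke, between 13.7 and 20.0 CPM in e-cigarette and between 6.38 and 9.53 CPM in air, so that every exposed library was above every air library. Of all tested genes, 2.43% had no overlap in smoke versus air and 10.5% in e-cigarette versus air. The share with both was not computed. The log2 fold change of Adgrg6 was 0.70 in smoke versus air (SE 0.14, adjusted p = 0.0215, edgeR) and 1.05 in e-cigarette versus air (SE 0.14, adjusted p = 2.77e-05, edgeR). The comparisons share the air libraries. The smoke call was lost without air replicate 5 or smoke replicate 4, 5 or 6 (adjusted p up to 0.0642, edgeR), and the e-cigarette call in none of the 18 fits without 1 library. Over all 32 refits, the 18 without 1 library and 14 alternatives, the smoke call held in 25 and the e-cigarette call in 31. Tead1, a transcription factor of the Hippo pathway, rose by 0.51 and Adam22, a receptor of the LGI proteins, fell by 0.98 on the log2 scale in e-cigarette versus air. Erbb3, the neuregulin receptor of Schwann cells, was at 0.14 in smoke and -0.06 in e-cigarette, and Egr2, the transcription factor that drives myelin genes, at -1.09 and -1.23, both against air and not called. Egr2 had 16.2 CPM in air replicate 3 and between 0.702 and 7.82 CPM in the other air libraries.

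Of 20 non-myelinating and immature Schwann genes, 1 rose in smoke versus air (median 0.32), and 9 rose and 4 fell in e-cigarette versus air (median 0.37). The e-cigarette calls are 65.0% of the list beside 25.1% of all tested genes, and the smoke call is 5% beside 1.59%. Matn2, a matrix protein of nerve, was the gene called in smoke, at 0.67 (SE 0.16, adjusted p = 0.0356, edgeR), and averaged 31.5 ± 5.70 CPM in smoke and 19.8 ± 4.79 CPM in air (SD, n = 6 each). It was no longer called without any 1 of air replicates 3 to 6 or smoke replicates 3 to 6 (adjusted p up to 0.0996, edgeR). Over all 32 refits its smoke call held in 18. Matn2 also rose in e-cigarette, at 36.0 ± 6.08 CPM, with a log2 fold change against the same air libraries of 0.86 (SE 0.16, adjusted p = 4.23e-04, edgeR). Those that fell with e-cigarette were S100b, Cadm3, an adhesion protein, at -1.19, Sostdc1, a secreted inhibitor of BMP and Wnt signals, at -1.57, and Plekhb1 at -0.77. All 4 were higher in smoke than in e-cigarette: Cadm3 by 0.99, Sostdc1 by 1.31, Plekhb1 by 0.48 and S100b by 0.68. Ngfr, the low-affinity neurotrophin receptor, was at -0.45 in smoke and -0.35 in e-cigarette against air and not called.

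Of 13 tested genes of the repair programme that Schwann cells enter after injury, 0 rose and 2 fell in smoke versus air. These 2 are 15.4% of the list, beside 1.59% of all tested genes. They were Jun, the programme's central transcription factor, at -0.57 (SE 0.14, adjusted p = 0.0474, edgeR), and Atf3, an injury-induced transcription factor, at -1.84 (SE 0.40, adjusted p = 0.0294, edgeR). Both genes respond to stress in many cell types. Leaving out 1 library ended the smoke call of Jun in 12 of 18 fits and that of Atf3 in 6 of 18 (without air replicate 5 or smoke replicate 1, 3, 4, 5 or 6). Over all 32 refits the smoke call of Jun held in 16 and that of Atf3 in 22. Atf3 stood at 58.1 CPM in air replicate 3, between 6.84 and 21.4 CPM in the other air libraries and between 4.11 and 8.69 CPM in smoke. Its value was -1.24 (adjusted p = 0.0245, edgeR) without air replicate 3 and -0.85 (adjusted p = 0.0281) without air replicates 1, 2 and 3, and with a replicate block it was not called (adjusted p = 0.117). In e-cigarette versus air 3 rose and 4 fell, 53.8% of the list beside 25.1% of all tested genes, the falling ones including Jun at -1.03, Tnc, a matrix protein, at -1.24 and Artn, a neurotrophic factor, at -1.55. In smoke versus e-cigarette 2 were higher, Tnc at 1.02 among them, and 2 lower, Ucn2 at -0.83 and Cryab, a small heat-shock protein, at -0.48. Those calls are 30.8% of the list beside 16.5% of all tested genes. Without smoke replicate 3 Ucn2 was no longer called (adjusted p = 0.0552, edgeR).

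Of 15 tested axon and neuron genes, 0 were called in smoke versus air (median -0.03), and 1 rose and 4 fell in e-cigarette versus air (median -0.26), 33.3% of the list beside 25.1% of all tested genes. The largest falls were Npy, a neuropeptide, by 3.30, Ret, a receptor of glial-derived neurotrophic factors, by 1.98, and Map1b, an axonal microtubule protein, by 1.32 on the log2 scale. Ret is also a gene of thyroid C cells. Of 8 C cell and parathyroid genes, 7 were lower and 0 higher in that comparison, 87.5% of the list. They summed to between 22.1 and 309 CPM in e-cigarette and between 1655 and 9406 CPM in air. The part of that tissue in these falls was not tested. Nefl, the light neurofilament of large axons, had at most 41 counts in any library and was at 1.31 in smoke and 0.59 in e-cigarette against air, not called.

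Of 12 genes of the perineurium and endoneurial fibroblasts, the cells that wrap nerve bundles, 1 rose in smoke versus air and 4 rose and 1 fell in e-cigarette versus air. The e-cigarette calls are 41.7% of the list beside 25.1% of all tested genes, and the smoke call is 8.33% beside 1.59%. Cldn1, a tight-junction protein of perineurium and of epithelia, was the gene that rose in both, at 0.61 in smoke (SE 0.15, adjusted p = 0.0428, edgeR) and 1.03 in e-cigarette (SE 0.15, adjusted p = 4.95e-05, edgeR). The smoke call of Cldn1 was lost in 14 of 18 fits without 1 library (adjusted p up to 0.104, edgeR). Over all 32 refits that call held in 10. Sox9, at -1.11, fell with e-cigarette, and Wif1, a Wnt inhibitor, rose by 1.62. None of 5 tested melanocyte genes was called in any of the 3 comparisons, and their list summed to between 16.5 and 27.1 CPM over all libraries.

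**Figure D3:**
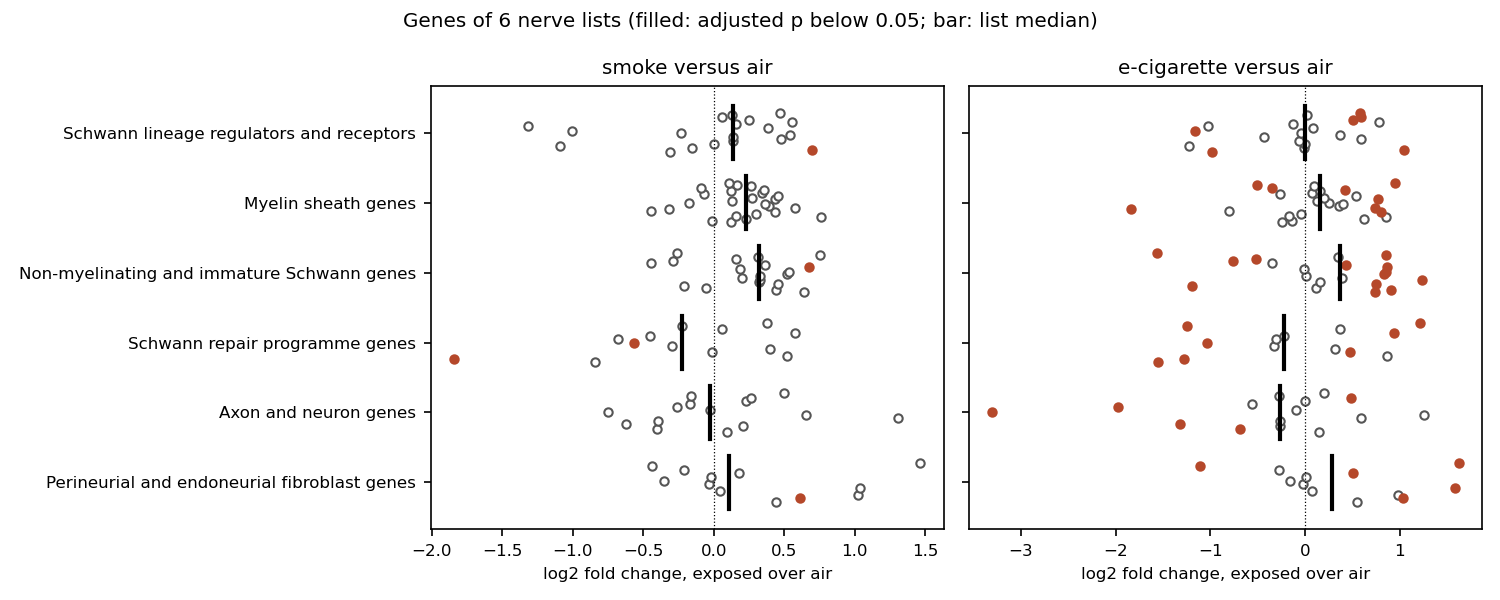
Log2 fold changes of the tested genes of 6 nerve lists in smoke versus air and e-cigarette versus air, 1 point per gene; filled points have an adjusted p below 0.05 in edgeR and the vertical bars are list medians. In smoke versus air 5 points are filled, while in e-cigarette versus air filled points lie on both sides of 0 in all 6 lists.

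Between libraries of the same group, some of the 8 genes varied together, Mbp with Prx and Ncmap with Cdh19 most closely. Levels were taken as log2 CPM with the group mean removed, and 116 relations were computed, with permutation tests within groups and adjustment over all 116. For 6 of the 8 genes, the air replicates set apart above by gland and cartilage genes were all lower than the other air libraries. The share of all tested genes with that split was not computed, and lists of other tissues also split so, as given below. The values over the 12 smoke and e-cigarette libraries therefore come first. Over those 12, Mbp and Prx had r = 0.957 and rho = 0.958 (adjusted permutation p = 0.00232 and 0.00348), and Ncmap and Cdh19 had r = 0.888 and rho = 0.874 (adjusted permutation p = 0.00766 and 0.0261). Leaving out the 2 libraries farthest from the median gave r = 0.947 and 0.848. Of the 28 pairs, 26 had r above 0, the median r was 0.473, and 6 had an adjusted p below 0.05. The other 4 of these 6 were Sox10 with Prx (r = 0.815), Prx with Ncmap (0.787), Prx with Cdh19 (0.782) and Sox10 with Mbp (0.768, and 0.590 without the 2 farthest libraries). The same counts were not made for pairs of other tested genes, here or with air included. Genes outside the nerve lists reached r as high over these 12 libraries, such as B4galnt3 with Ncmap (0.977) and Vwf with Prx (0.957). Among the 4 myelin sheath genes, Mbp with Ncmap had r = 0.724 and an adjusted permutation p of 0.0769. Pmp22 passed with none of the other 3, at r = 0.419 with Mbp, 0.452 with Prx and 0.558 with Ncmap (adjusted permutation p = 0.189 to 0.488).

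S100b and Pmp22 had r = 0.802 over the 12 libraries, but an adjusted permutation p of 0.107, and r was 0.330 without the 2 farthest libraries, so that relation rested on them. S100b with Sox10 had r = -0.05, but 0.737 without the 2 libraries farthest from the Sox10 median, so that the low value also rested on 2 libraries. S100b with Mbp had r = 0.13, and 0.227 without the 2 farthest. With the 6 air libraries included, 13 of 28 pairs had an adjusted p below 0.05 and the median r was 0.595, S100b with Sox10 had r = -0.42, and Mbp with Prx 0.912. In the air group 6 of the 8 genes, Mbp, Pmp22, Sox10, Prx, Ncmap and Cdh19, were lower in each of replicates 4, 5 and 6 than in any of replicates 1, 2 and 3. S100b and Gap43 were not: among the air libraries S100b was highest in replicates 5 and 6, at 46.2 and 41.3 CPM. The share of all tested genes that split the air group this way was not computed. The split was not particular to these genes. Endothelial genes summed to 331 to 440 CPM in replicates 4, 5 and 6 and 606 to 676 CPM in the others. Fast muscle genes summed to 21982 to 27023 and 29993 to 38266 CPM. Ciliated cell genes went the other way, at 650 to 809 and 489 to 532 CPM.

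The members also varied with lists of nerve and other cells. A list score is the mean over its genes of standardised log2 CPM, with members left out. Over the 12 libraries, the myelin sheath score went with Mbp (r = 0.88, rho = 0.790), Prx (r = 0.875, rho = 0.783) and Sox10 (r = 0.826, rho = 0.867), each with an adjusted permutation p of 0.00799 for r. The perineurial and endoneurial score went with Prx (r = 0.931, rho = 0.881, adjusted permutation p = 0.00696 and 0.0261), with Mbp (r = 0.888, adjusted permutation p = 0.00766), with Cdh19 (r = 0.849) and with Ncmap (r = 0.798). The cartilage score went with Ncmap (r = 0.886, rho = 0.811, adjusted permutation p = 0.00696 and 0.0582) and Cdh19 (r = 0.824). The gland score went with Sox10 (r = 0.866, rho = 0.797, adjusted permutation p = 0.0381 and 0.144), and r was 0.622 without the 2 farthest libraries. With the air libraries included the gland score and Sox10 had r = 0.972 and the gland score and S100b r = -0.48 (adjusted permutation p = 0.0861). The melanocyte score had r between -0.27 and 0.22 with the 8 genes over the 12 libraries.

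**Figure D4:**
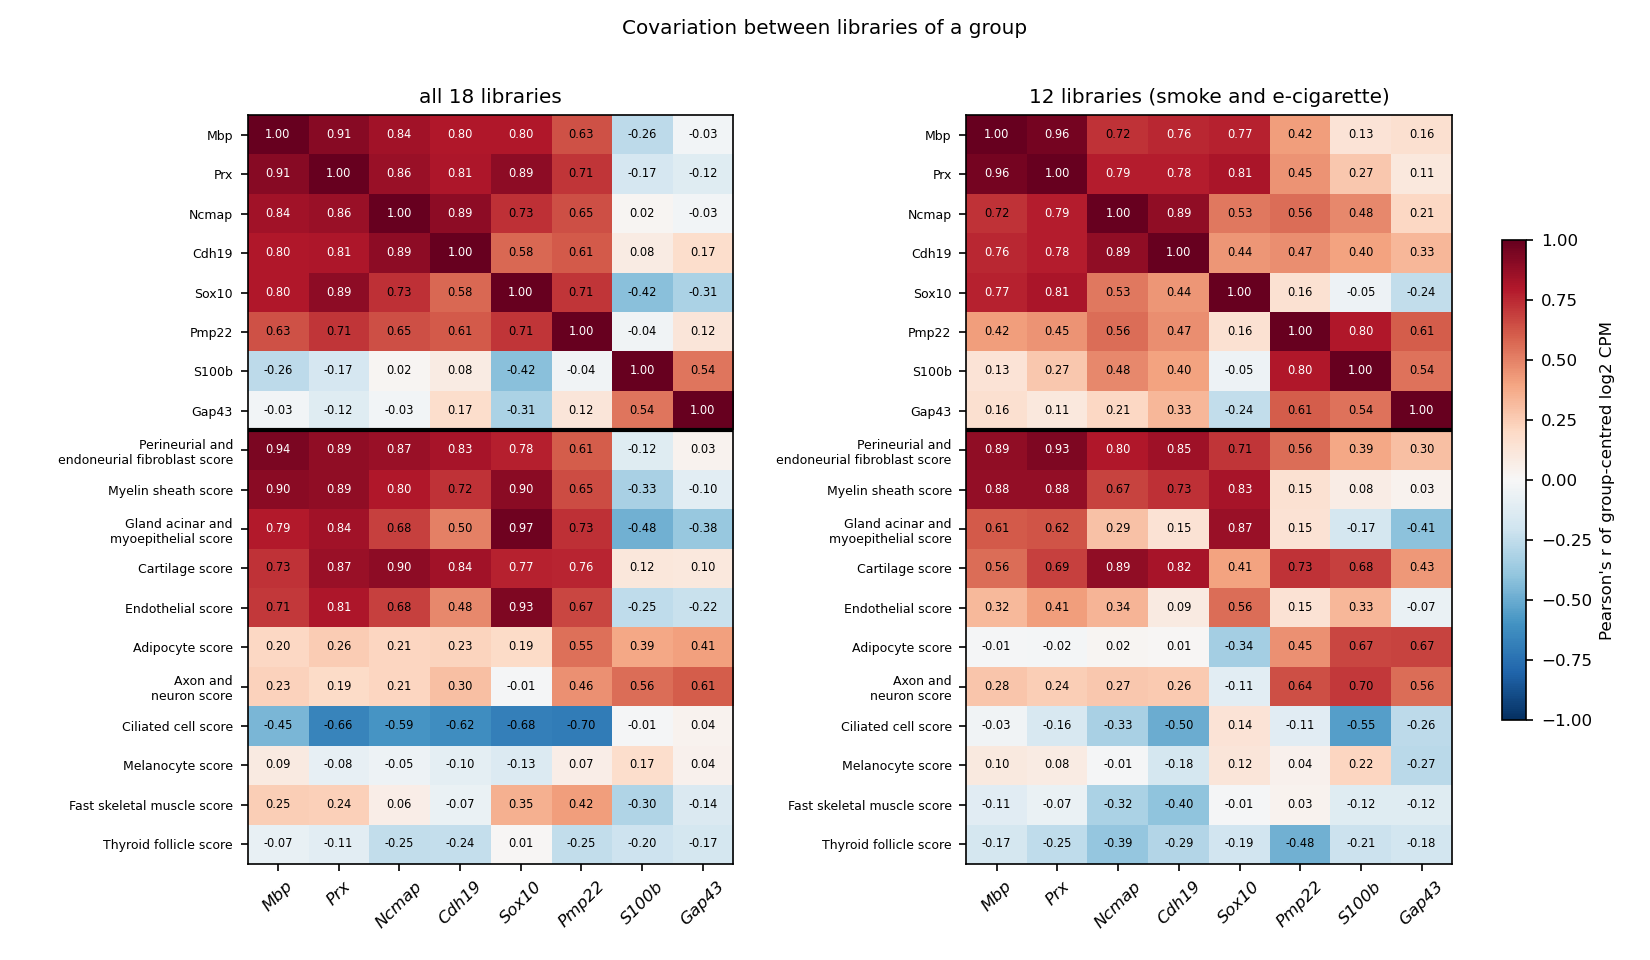
Pearson's r of group-centred log2 CPM for the 8 genes (above the line) and for 11 list scores against them (below it), over 18 libraries on the left and the 12 smoke and e-cigarette libraries on the right. Mbp, Prx, Ncmap and Cdh19 form a block with r from 0.72 to 0.96 on the right, and S100b and Gap43 lie outside it.

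**Figure D5:**
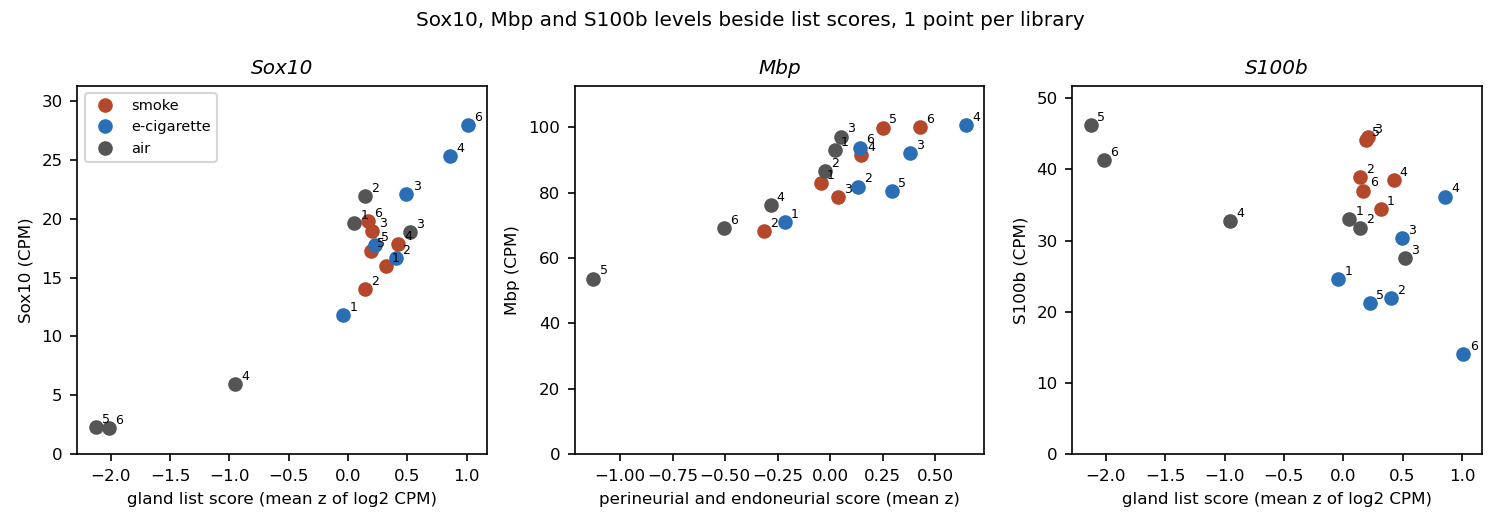
CPM of Sox10, Mbp and S100b against the gland score or the perineurial and endoneurial score (mean z of log2 CPM), 1 point per library with its replicate number. Air replicates 4, 5 and 6 have the 3 lowest gland scores and the 3 lowest Sox10 levels, at 2.22 to 5.96 CPM, but S100b levels of 32.7 to 46.2 CPM.

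With the gland score as a covariate in the fit, Sox10 was at -0.17 in smoke versus air and -0.33 in e-cigarette versus air, and neither was called. Pmp22 was then at -0.61 in e-cigarette versus air (adjusted p = 5.83e-04, edgeR), S100b at -0.25 (adjusted p = 0.372) and Cdh19 at 0.41 (adjusted p = 0.257). In smoke versus e-cigarette S100b was at 0.63 (adjusted p = 0.00754) and Pmp22 at 0.31 (adjusted p = 0.0178) with that covariate.

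Across all tested protein-coding genes, the 3 whose group-centred levels over 18 libraries were most like each member were as follows, by Pearson's r and as a description. Mbp was nearest to Phc1 (0.950), Vwf (0.943) and Tmem63b (0.928). Sox10 was nearest to Kcnn4 (0.979), Cnn1 (0.972), a smooth-muscle and myoepithelial calponin, and Pax1 (0.970). Prx was nearest to Furin (0.949), Paqr4 (0.947) and Acan (0.943), the main proteoglycan of cartilage. Ncmap was nearest to Xylt1 (0.975), B4galnt3 (0.938) and Mrvi1 (0.937), and Cdh19 to Foxo1 (0.930), Col6a3 (0.929) and B4galnt3 (0.920). Pmp22 was nearest to Mical1 (0.947), Srm (0.928) and Kcna5 (0.900). S100b was nearest to Galnt11 (0.877), Sgce (0.864) and Fig4 (0.823), and Gap43 to Fam131b (0.796), Add2 (0.776) and Ccdc73 (0.758). No gene of the Schwann cell or myelin lists was among these 24 places. Over the 12 libraries without air, Cadm3 of the non-myelinating Schwann list was among the 3 nearest to S100b (0.954), after Mxra7 (0.970) and Meox1 (0.956). The nearest gene over those 12 was again Phc1 for Mbp (0.937), but Fam234b for Sox10 (0.955), followed by Osr2 of the perineurial and endoneurial list (0.937). It was Vwf for Prx (0.957), and Acan was not among the 3 nearest to Prx. It was B4galnt3 for Ncmap (0.977), Vps26b for Cdh19 (0.932), Serpinh1 for Pmp22 (0.932) and Sdha for Gap43 (0.925).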

How the data were processed

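Counts per gene for 18 larynx libraries, 6 per group, were deposited as whole numbers with gene coordinates and lengths. The submitters' processing notes name the aligner STAR, with no version, the counter featureCounts 1.5.0-p3, and the builds GRCm38 and mm10. Per the labels' protocols the library kit was NEBNext Ultra RNA, which does not mark strand. Neither the annotation release nor the strand setting is given in the sources used here. The deposited gene length, in bases, is of another unit and served only for RPKM. Genes of near-identical sequence can share reads.

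Genes were kept with filterByExpr (minimum count 10, minimum total 15). The 3 groups were fitted in 1 edgeR 4.0.16 model (TMM, robust quasi-likelihood, no covariates, R 4.3.3), each pair was tested with the quasi-likelihood F test, with Benjamini-Hochberg adjustment over 17537 genes. Adjusted p-values come from this fit where the text names no other tool. A gene is called, and rose or fell, where its adjusted p is below 0.05, and SEs derive from the F statistic. Depth was 15.6 to 22.5 M counts per library, so that 1 CPM is about as many counts as the library has M. Libraries of a group differed by more than sampling noise (chi-square divided by its degrees of freedom was 16.5 to 146 over 45 pairs). Correlations used log2 CPM (prior count 2) and 100000 permutations within groups.

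The members and the 16 gene lists were chosen with earlier results of these data known. Named genes were the 8 members, up to 3 called genes with the smallest p from each list and comparison, 12 fixed genes, and the 3 nearest genes of each member. Some of these genes are not reported here. The text also leaves out part of those outside the nerve lists, and it names Mog and Myrf, which were chosen after their values were seen. The fit was tested on simulated counts. Alternatives were other scalings and filters, DESeq2 1.42.0, voom in limma 3.58.1, fits of 2 groups, a replicate block, composition covariates and leaving out libraries. The 4 composition covariates were the thyroid, fast muscle, cartilage and adipocyte scores, and the thyroid score separated e-cigarette from all other libraries. Leaving out air replicates 1, 2 and 3, the gland covariate, and the correlations without air were chosen after seeing the data. Promoter sequences are from RefSeq (GRCm38.p6).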

Additional observations from a re-analysis of the deposited data

How the results depend on the processing

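The 4 member calls and the 24 member values were recomputed under 14 alternatives and 18 fits that each left out 1 library. Leaving out 1 library moved the genes called in smoke versus air between 50 and 562 (279 with all), in e-cigarette versus air between 3678 and 4425 (4406) and in smoke versus e-cigarette between 2113 and 3237 (2897). Members called ran between 0 and 1 higher and 0 and 2 lower in e-cigarette versus air, stayed at 1 higher in smoke versus e-cigarette, and stayed at 0 in smoke versus air.

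Genes called in smoke versus air were 967 in DESeq2, 1120 in voom with sample quality weights, 184 with no filter on low counts, 109 with only the 2 groups compared, 451 without air 4, 5 and 6, 2198 without air 1, 2 and 3, 163 without e-cigarette 2, 4, 5 and 6, and 641 with the gland score as covariate. In e-cigarette versus air they were 113 with 4 composition covariates and 688 without e-cigarette 2, 4, 5 and 6. In smoke versus e-cigarette they were 0 and 147 in the same 2 fits. The replicate block left 39 genes called in smoke versus air and 1 member lower in e-cigarette versus air, where Pmp22 was at -0.33 (adjusted p = 0.0770, edgeR). It changed no other member's call. Same-numbered libraries did not deviate together over all genes (r between -0.446 and 0.157 over 18 pairs of libraries). The labels name no batch, and whether the numbers mark one was not tested.

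Members called in smoke versus air were 1 higher in voom, 1 lower with 4 composition covariates (Pmp22, -0.47), and 3 higher without air 1, 2 and 3. In e-cigarette versus air they were 2 higher and 1 lower in voom, 0 lower with only the 2 groups compared, 0 and 0 with 4 composition covariates and without e-cigarette 2, 4, 5 and 6, 0 higher and 1 lower without air 4, 5 and 6 and with the gland score, and 4 higher and 1 lower without air 1, 2 and 3. In smoke versus e-cigarette 2 were higher with only the 2 groups compared, with the gland score and without air 1, 2 and 3, and 0 with 4 composition covariates and without e-cigarette 2, 4, 5 and 6. Among named list genes in e-cigarette versus air, Cldn1 was called in 32 of 32 refits. Adam22, Adgrg6, Cadm3, Gjb1, Jun, Map1b, Mpdz, Nkx2-2, Npy, Plekhb1, Ret, Sostdc1 and Tnc were called in 31. Artn, Matn2, Sox9, Tead1 and Ugt8a were called in 30, and Wif1 in 29.

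Directions turned as follows, none of them from a called value. With 4 composition covariates, smoke versus air gave Cdh19 -0.083, Ncmap -0.18, Prx -0.32, Mag -0.021, Sox10 -0.34 and Mbp -0.19, and e-cigarette versus air gave Ncmap -0.079, Prx -0.45, Mag -0.041, Sox10 -0.18 and Mbp -0.19. Without air 4, 5 and 6, smoke versus air gave Prx -0.15, Mag -0.042, Sox10 -0.24 and Mbp -0.11, and e-cigarette versus air gave Prx -0.31 and Mbp -0.10. With the gland score, smoke versus air gave Prx -0.13, Sox10 -0.17 and Mbp -0.11, e-cigarette versus air gave Prx -0.44, Mag -0.025, Sox10 -0.33 and Mbp -0.19, and smoke versus e-cigarette gave Ncmap 0.045 and Sox10 0.16. Without air 1, 2 and 3, smoke versus air gave Egr2 0.93, S100b -0.025, Pmp22 0.22 and Ngfr 0.31, and e-cigarette versus air gave Egr2 0.80 and Ngfr 0.40 (both uncalled). In voom, smoke versus air gave Egr2 0.28 and Pmp22 0.073, and e-cigarette versus air Egr2 0.11 and Ngfr 0.018. Without e-cigarette 2, 4, 5 and 6, Prx was at -0.053 in e-cigarette versus air, and Ncmap at 0.11 and Sox10 at 0.028 in smoke versus e-cigarette. Mbp in smoke versus e-cigarette, at 0.0042, was at -0.0056 with DESeq2 size factors and in DESeq2, at -0.011 with no filter, with 2 groups and without air 4, 5 and 6, and at -0.037 with upper quartile factors. Leaving out 1 library turned Pmp22 in smoke versus air (-0.17 to 0.0059), Prx in e-cigarette versus air (-0.034 to 0.23), and Ncmap (-0.26 to 0.041) and Mbp (-0.044 to 0.068) in smoke versus e-cigarette. The cause of these shifts was not tested.

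Library totals alone moved the median of all genes to -0.05 in smoke versus air, -0.10 in e-cigarette versus air and 0.03 in smoke versus e-cigarette, and the share of calls that were higher to 39.1%, 29.7% and 76%, against 61.3%, 48.3% and 63.1% with TMM. DESeq2 size factors gave 48% in smoke versus air. Depth limits Gap43, with 525 counts over 18 libraries.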
